A study of Mus musculus with 9 samples.

Results

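The immunity-related GTPases (IRGs) described here are the 7 named genes *Irgm1*, *Irgm2*, *Igtp*, *Iigp1*, *Tgtp1*, *Tgtp2* and *Ifi47*. They were chosen by name, as well-studied interferon-inducible members of the family, with earlier results of these data known. All 7 are among the 55471 genes of the deposited counts, and all 7 passed the filter on low counts that left 16260 genes for testing. RNA was sequenced from dendritic cells (DCs) grown from the bone marrow of wild-type (WT) female C57BL/6 mice in the presence of GM-CSF. One group was left unstimulated for 6 h, another was activated with LPS, a bacterial outer membrane component sensed by a Toll-like receptor, and another was treated with IFN-β, a type I interferon. Each group had 3 libraries, lettered A, B and C, and no group carried a transgene or deletion. The labels do not say whether the libraries came from separate cultures or animals, so the p-values measure only the spread between these libraries.

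IRGs are interferon-inducible GTPases that guard the cell interior of mice against vacuole-dwelling pathogens such as *Toxoplasma gondii* and *Chlamydia*. Effector IRGs of the GKS class, named for the lysine in their nucleotide-binding P-loop, load onto the vacuole membrane with the help of the ATG8 conjugation machinery, and the membrane is then disrupted. Regulators of the GMS class carry a methionine at that position, reside on the cell's own membranes and keep the effectors inactive there. The GMS class comprises *Irgm1*, *Irgm2* and *Igtp*, which encode IRGM1, IRGM2 and IRGM3. The GKS class is represented here by *Iigp1*, which encodes IRGA6, the paralogous pair *Tgtp1* and *Tgtp2*, which encode IRGB6 proteins, and *Ifi47*, which encodes IRGD.

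The proximal promoters of 6 of these genes were read from RefSeq on GRCm38.p6. The promoter of *Iigp1* was left out, so the counts out of 6 below do not cover this gene. Genes that respond to interferon commonly carry an interferon-stimulated response element (ISRE) or a gamma-activated site (GAS). An ISRE is bound by factors of the IRF family. Each promoter covered 250 bases before to 50 bases after the start site, which is position 0. It was searched on both strands for GAAANNGAA, an ISRE-type core, and TTCNNNGAA, a GAS. *Irgm1*, *Irgm2*, *Igtp*, *Tgtp1* and *Tgtp2* held an ISRE-type match (5 of 6), beside 8.56% of 32851 RefSeq promoters. *Irgm2*, *Igtp*, *Tgtp1* and *Tgtp2* also held a GAS (4 of 6), beside 8.3% of promoters, and both motifs together occurred in 1.07% of promoters. The promoter of *Ifi47* held neither run of letters in this window. The windows around the matches are shown because they carry the sequence that these genes share, 5′ to 3′ on the gene's own strand with the motif matches in capitals. They lie at chr11:48871424-48871462 (minus strand, *Irgm1*), chr11:58214890-58214933 (plus, *Irgm2*), chr11:58199499-58199542 (plus, *Igtp*), chr11:48992303-48992346 (minus, *Tgtp1*) and chr11:49064262-49064305 (minus, *Tgtp2*).
Irgm1: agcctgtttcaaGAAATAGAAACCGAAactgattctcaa
Irgm2: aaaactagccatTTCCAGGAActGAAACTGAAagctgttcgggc
Igtp: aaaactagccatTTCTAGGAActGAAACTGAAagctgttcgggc
Tgtp1: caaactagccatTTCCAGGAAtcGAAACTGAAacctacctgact
Tgtp2: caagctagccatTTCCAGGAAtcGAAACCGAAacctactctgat
The capitals in *Irgm1* are a pair of overlapping ISRE-type matches, which start at -30 and -24. In each of the other windows the first block of capitals is the GAS and the second the ISRE-type match, with 2 bases between them. The 44-base windows of *Irgm2* and *Igtp* were identical at 43 positions, those of *Tgtp1* and *Tgtp2* at 37, and windows from different pairs at 32 or 33. After this spacing had been seen, all promoters were searched for a GAS that ends 2 bases before an ISRE-type match on the same strand. It was found in 8 of 32851 promoters (0.0244%). Of these, 5 belong to IRG genes: the 4 above and *Gm12185*, a family member beside *Tgtp1*. The 4 were certain to match, since the spacing was taken from them. The other 3 were those of *Adar*, *Olfr382* and LOC115488470. Among the other family promoters read, *Gm12250* and *Gm12185* held both motifs and *9930111J21Rik1* an ISRE-type match, while *9930111J21Rik2*, *Gm5431* and *Irgq* held neither.

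**Figure D1:**
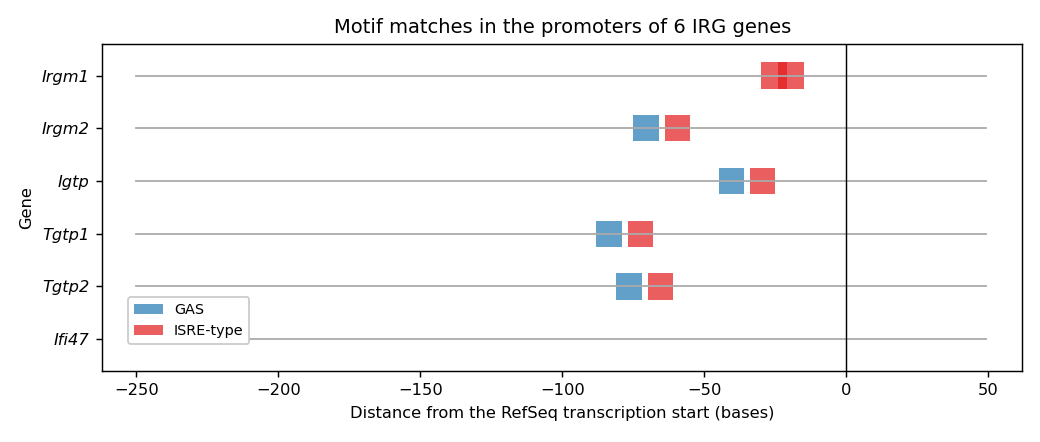
Motif matches in the RefSeq promoters of 6 IRG genes, plotted by distance in bases from the transcription start (vertical line at 0), with GAS matches in blue and ISRE-type matches in red. The GAS and ISRE-type matches stand side by side in *Irgm2*, *Igtp*, *Tgtp1* and *Tgtp2*. *Irgm1* has a pair of overlapping ISRE-type matches, and *Ifi47* has no match in this window. The promoter of *Iigp1* was left out.

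Each library held 33425803 to 43735199 counts on genes. Expression is given as CPM, a gene's counts relative to a library size scaled by TMM factors, which correct for composition. Changes were tested with edgeR's quasi-likelihood F-tests on a single model of the 3 conditions, with Benjamini-Hochberg adjustment over all 16260 genes and a threshold of 0.05 on the adjusted p. The TMM factors ran from 0.783 in LPS-activated to 1.26 in unstimulated DCs. Without them the log2 fold changes moved at their median over genes by -0.58 for LPS, by -0.31 for IFN-β and by 0.27 for IFN-β against LPS, and the share of higher genes among those called fell from 48.1% to 21.9%, fell from 50.3% to 22.3% and rose from 52.5% to 77.9%, respectively. The DC markers *Itgax* and *Cd74* were abundant (mean 1375 and 2537 CPM in unstimulated DCs), while *Flt3* was at 3.06 CPM. Of the 6 DC markers, 4 were called higher with LPS, beside 32.8% of all genes tested. With IFN-β 0 were called, beside 46.9% called in either direction. The 6 markers summed to 4517 to 5376 CPM in unstimulated, 5958 to 6698 CPM in LPS-activated and 5013 to 5268 CPM in IFN-β-treated DCs. Their part in the IRG levels was not tested. The treatments were checked with *Il12b*, which rose with LPS by 10.05 ± 0.21 (log2, SE) and changed with IFN-β by 0.33 ± 0.17 (adjusted p = 0.134), and with *Ifit1*, which rose by 6.47 ± 0.43 and 4.93 ± 0.40.

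LPS and IFN-β each raised all 7 IRG genes after 6 h. The summed level of the 7 genes went from 162 ± 61.4 CPM (SD, n = 3) in unstimulated DCs to 2292 ± 376 CPM with LPS and 1601 ± 169 CPM with IFN-β, which is 14.2 times and 9.90 times the unstimulated mean. With LPS, 7 of 7 were called higher, beside 32.8% of all genes tested. With IFN-β, 7 of 7 were also called higher, beside 23.6%. No stimulated library overlapped an unstimulated one for any of the 7, while 34.6% of genes were higher without overlap for LPS and 28.5% for IFN-β. The median log2 fold change was 4.08 for LPS and 3.39 for IFN-β, beside -0.04 and -0.02 over all genes tested. The pair of comparisons share the unstimulated libraries. In these bulk samples, more RNA per cell and more cells that express a gene cannot be told apart.

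The GMS regulators were already present in unstimulated DCs. *Irgm1* (chr11:48861968-48871683, minus strand, GENCODE M21 on GRCm38) encodes a regulator found on Golgi and lysosomal membranes. In libraries A, B and C its level was 101, 80.0 and 45.4 CPM without stimulation, 818, 692 and 657 CPM with LPS, and 538, 481 and 525 CPM with IFN-β. The 3 groups did not overlap, with LPS highest and unstimulated lowest. *Irgm1* rose by 3.26 ± 0.24 on the log2 scale with LPS (SE, 9.56-fold, adjusted p = 6.5e-07) and by 2.77 ± 0.24 with IFN-β (6.82-fold, adjusted p = 9.6e-06).

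*Irgm2* (chr11:58199618-58222782, plus strand) encodes a regulator on the Golgi. Its level was 47.9, 33.1 and 22.1 CPM in unstimulated, 297, 238 and 206 CPM in LPS-activated and 260, 208 and 224 CPM in IFN-β-treated libraries. Both stimulated groups stood well above the unstimulated one and overlapped each other. *Irgm2* had the smallest LPS change of the 7, at 2.85 ± 0.25 (7.20-fold, adjusted p = 2.03e-06), and changed with IFN-β by 2.75 ± 0.25 (6.71-fold, adjusted p = 1.23e-05).

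*Igtp* (chr11:58199556-58207591, plus strand) encodes an endoplasmic reticulum and lipid droplet regulator and overlaps *Irgm2* by 162 exon bases on the same strand. It measured 20.3, 16.5 and 10.4 CPM in unstimulated libraries, 214, 162 and 137 CPM with LPS and 170, 133 and 132 CPM with IFN-β. As with *Irgm2*, the LPS and IFN-β libraries overlapped. *Igtp* rose by 3.44 ± 0.24 (10.9-fold, adjusted p = 4.5e-07) and by 3.20 ± 0.24 (9.20-fold, adjusted p = 4.5e-06).

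Among the GKS effectors, *Iigp1*, *Tgtp1* and *Tgtp2* started from lower levels per exon length than the regulators and had fold changes above theirs with both stimuli, while the changes of *Ifi47* were closer to those of *Igtp*. The differences between genes in fold change were not tested. *Iigp1* (chr18:60376027-60392634, plus strand) lies apart from the others and encodes a widely studied IRG that coats the *Toxoplasma* vacuole. Its counts were 116, 82 and 16 in the unstimulated libraries A, B and C, or 2.94, 1.84 and 0.361 CPM. It reached 521, 370 and 362 CPM with LPS and 288, 207 and 238 CPM with IFN-β, again with no overlap between the 3 groups. The LPS change was 7.95 ± 0.48 (247-fold, adjusted p = 1.3e-07), rank 33 from the top of 16260 genes. The IFN-β change was 7.18 ± 0.47 (145-fold, adjusted p = 1.9e-06), rank 8. Without unstimulated library A the changes were 8.55 and 7.79.

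*Tgtp1* (chr11:48985327-48994172, minus strand) and *Tgtp2* (chr11:49057194-49064206, minus strand) are near-identical neighbours whose coding sequences matched at 99.7% of aligned bases. Of their distinct 100-base stretches, 73.2% and 76.8%, respectively, also occur in another gene, nearly all in the other of the pair, so their separate levels are uncertain. *Tgtp1* was counted at 0.709, 0.337 and 0.316 CPM in unstimulated, 38.4, 23.9 and 20.9 CPM in LPS-activated and 23.0, 13.2 and 18.3 CPM in IFN-β-treated libraries. *Tgtp2* was counted at 5.47, 4.58 and 1.62 CPM, at 242, 183 and 178 CPM and at 153, 126 and 129 CPM in the same order. Both genes were lowest in every unstimulated library, and the stimulated groups overlapped for *Tgtp1* and not for *Tgtp2*. *Tgtp1* rose by 5.94 ± 0.37 with LPS (adjusted p = 1.7e-07) and by 5.34 ± 0.37 with IFN-β (adjusted p = 2.7e-06). *Tgtp2* rose by 5.70 ± 0.34 (adjusted p = 1.3e-07) and 5.13 ± 0.33 (adjusted p = 1.9e-06). Summed as 1 gene, the pair rose by 5.72 ± 0.34 and 5.16 ± 0.33. The sum does not restore reads lost because they map to both genes. Without TMM factors the LPS change of *Tgtp1* was 5.35.

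*Ifi47* (chr11:49076587-49096974, plus strand) encodes an effector and shares 111 exon bases with *Olfr56* on the same strand and 106 with *Gm12188* on the opposite one. It measured 42.4, 29.0 and 18.3 CPM in unstimulated, 592, 454 and 468 CPM in LPS-activated and 344, 271 and 322 CPM in IFN-β-treated libraries. The 3 groups did not overlap, with LPS highest and unstimulated lowest. *Ifi47* rose by 4.08 ± 0.27 (16.9-fold, adjusted p = 2.6e-07) and by 3.39 ± 0.26 (10.4-fold, adjusted p = 5.1e-06).

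**Figure D2:**
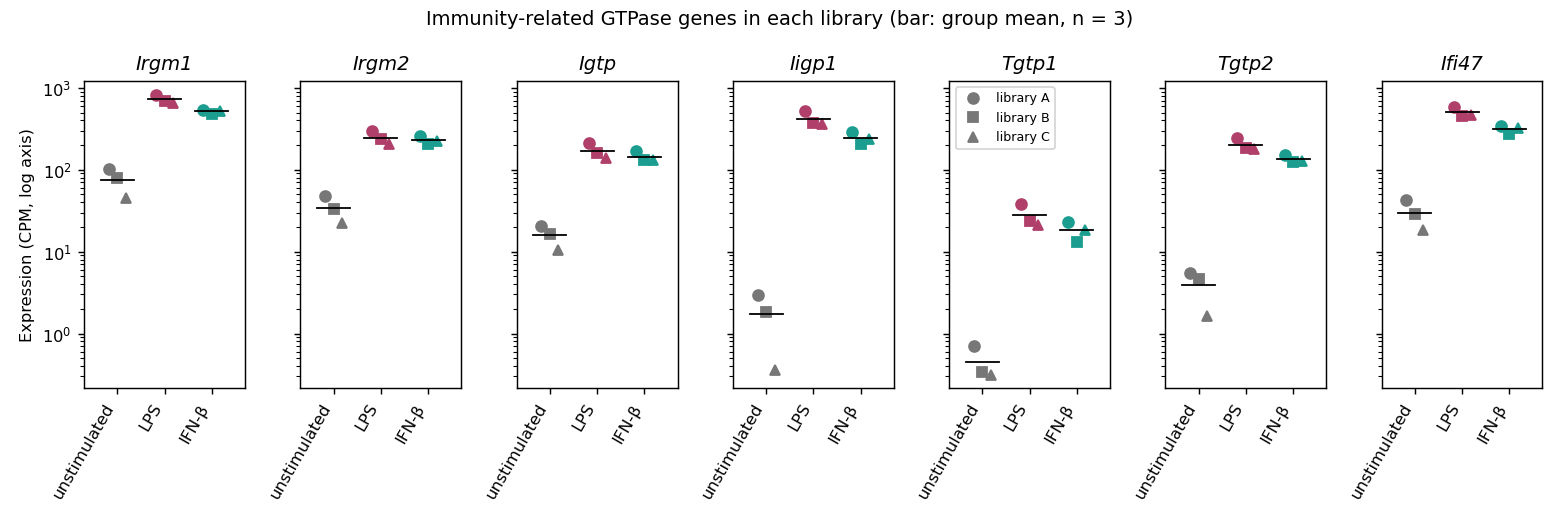
Expression of the 7 IRG genes in each of the 9 libraries, in CPM on a log axis. Circles, squares and triangles are libraries A, B and C, and bars are group means (n = 3). For each gene the stimulated libraries lie above the unstimulated ones, with the widest distance for *Iigp1* and the narrowest for *Irgm2*.

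Levels were ordered between genes after division by exon length, as CPM per kilobase of exon. In unstimulated DCs *Irgm1* (13.0 ± 4.85, mean ± SD), *Ifi47* (12.1 ± 4.89), *Irgm2* (9.31 ± 3.51) and *Igtp* (7.79 ± 2.47) formed an upper set in which each neighbour overlapped the next. *Tgtp2* (1.33 ± 0.69) lay below all 4 and above *Iigp1* (0.294 ± 0.222) and *Tgtp1* (0.142 ± 0.069), which overlapped. With LPS the order changed to *Ifi47* (204 ± 30.6), then *Irgm1* (124 ± 14.6), each clear of its neighbours. *Igtp* (84.6 ± 19.5), *Iigp1* (71.8 ± 15.4), *Tgtp2* (68.3 ± 12.1) and *Irgm2* (67.0 ± 12.5) overlapped in sequence, and *Tgtp1* (8.64 ± 2.92) stayed far below. With IFN-β *Ifi47* (126 ± 15.2) was again first, followed by *Irgm1* (88.6 ± 5.16), *Igtp* (71.6 ± 10.6) and *Irgm2* (62.4 ± 7.20), the last 3 overlapping in sequence. *Tgtp2* (46.3 ± 5.14) and *Iigp1* (42.0 ± 7.05) overlapped below them, and *Tgtp1* (5.66 ± 1.54) was last. Reads that map to both *Tgtp1* and *Tgtp2* can be lost from both counts, so their places in this order may be too low.

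Among the IRG genes chosen here, the balance of counts between GMS regulators and GKS effectors moved with both stimuli. This balance was followed as the log2 ratio of summed GMS to summed GKS counts within each library. The ratio does not depend on how libraries are scaled. Other family genes, whose changes are given below, were left out of both sums. A shift of the effector class as a whole was therefore not tested. Across libraries A, B and C the ratio was 1.72, 1.86 and 1.92 without stimulation, -0.07, 0.08 and -0.04 with LPS, and 0.26, 0.41 and 0.32 with IFN-β. GMS counts were thus 3.29 to 3.78 times the GKS counts in unstimulated DCs, 0.954 to 1.06 times with LPS and 1.20 to 1.33 times with IFN-β, with no overlap between any groups. These counts were not divided by exon length, which ran from 2022 bases (*Igtp*) to 5823 (*Iigp1*). Longer genes therefore weigh more, and the ratio does not compare the levels of the classes per exon length. The mean ratio fell by 1.84 with LPS and fell by 1.50 with IFN-β, and it was 0.34 higher with IFN-β than with LPS. As a difference of the mean log2 counts of the GMS and GKS genes, which weights the genes equally, the changes were -2.82 and -2.44. In each comparison the exact two-sided permutation p was 0.1, the smallest that 3 against 3 libraries allow.

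*Iigp1* made up most of this change in the composition of counts, which were again not divided by exon length. It went from 0.936% ± 0.505 of the IRG counts (SD, n = 3) to 18.1% ± 0.893 with LPS and 15.2% with IFN-β. The share of *Irgm1* went the other way, from 46.8% to 31.7% and 32.3%, and that of *Irgm2* from 21.4% to 10.8% and 14.4%. *Tgtp2* went from 2.30% to 8.75% and 8.50%, and *Tgtp1* from 0.282% to 1.19% and 1.12%. All 7 shares moved without overlap between unstimulated and LPS (4 higher, 3 lower), and 5 of 7 did so with IFN-β (3 higher, 2 lower), the exceptions being *Igtp* and *Ifi47*. Between the stimuli, *Irgm2* and *Igtp* (7.41% with LPS, 9.03% with IFN-β) held larger shares with IFN-β, while *Iigp1* and *Ifi47* (22.1% and 19.5%) held smaller ones, in all cases without overlap. The exact permutation p of each non-overlapping share was 0.1, or 0.131 after Benjamini-Hochberg adjustment over the 21 comparisons of shares.

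**Figure D3:**
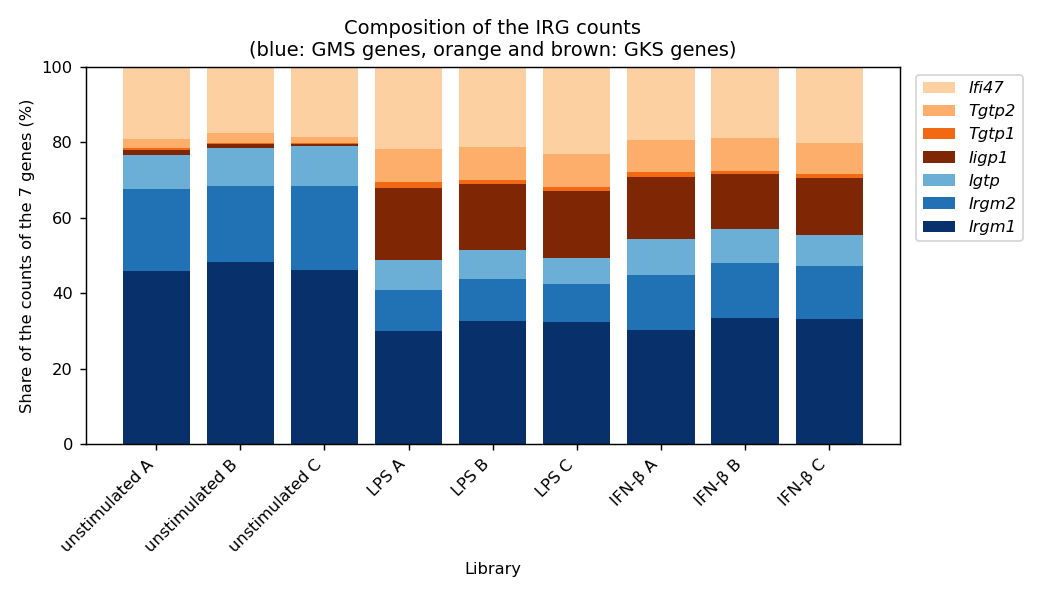
Share of each gene in the summed counts of the 7 IRG genes, in percent, for each of the 9 libraries, with GMS genes in blue and GKS genes in orange and brown. *Iigp1* is barely visible in the unstimulated libraries and takes 14.4% to 19.1% of the counts in the stimulated ones.

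The direct comparison of IFN-β with LPS was weaker and depended on the model. All 7 log2 differences were below 0 (median -0.56, beside 0.02 over all genes tested), and without TMM factors those of *Irgm2* (0.18) and *Igtp* (0.04) were above 0. Without LPS library A that of *Irgm2* was 0.04. *Ifi47* was called lower with IFN-β (-0.69 ± 0.24, adjusted p = 0.0325), which made 1 of 7, beside 23.3% of genes tested. The others did not pass: *Iigp1* differed by -0.77 ± 0.34 (adjusted p = 0.0798), *Tgtp1* by -0.61 ± 0.26 (adjusted p = 0.073) and *Tgtp2* by -0.56 ± 0.27. *Irgm1* differed by -0.49 ± 0.22 (adjusted p = 0.094), *Igtp* by -0.24 ± 0.22 and *Irgm2* by -0.10 ± 0.23. In *Irgm1*, *Iigp1*, *Tgtp2* and *Ifi47*, 4 of 7, every IFN-β library was below every LPS library, beside 27.3% of genes. With the letters A, B and C as a block, 5 of 7 were called lower, beside 27.6% of genes: *Irgm1* (-0.47, adjusted p = 0.0148), *Iigp1* (-0.76, adjusted p = 0.00239), *Tgtp1* (-0.60, adjusted p = 2.96e-04), *Tgtp2* (-0.55, adjusted p = 0.00605) and *Ifi47* (-0.68, adjusted p = 0.00105). The call of *Ifi47* was lost without LPS library A (-0.57, adjusted p = 0.1), without IFN-β library B (-0.60, adjusted p = 0.112), without IFN-β library C (-0.71, adjusted p = 0.0672) and without TMM factors (-0.41, adjusted p = 0.112). Leaving out single libraries gave between 0 and 4 calls: 3 without unstimulated A, 4 without unstimulated C, 2 without LPS C, 2 without IFN-β A and 0 without LPS A, IFN-β B or IFN-β C. Shares of all genes called in these fits are not given here. A change particular to the IRG genes therefore cannot be told from a general one.

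The unstimulated libraries differed from one another in the level of these genes. Library C was the lowest for 7 of 7, at a median of -0.92 on the log2 scale against the mean of the other two (range -1.72 for *Iigp1* to -0.30 for *Tgtp1*), while 37% of all genes tested were lowest there. The 5 interferon-activated transcription factors examined were also lowest in library C. *Irf7*, which amplifies the type I interferon response, stood at 228, 161 and 33.3 CPM in libraries A, B and C. The part of *Irf7* or of other factors in the IRG levels was not tested. Library A was the highest for 7 of 7 genes in each of the 3 groups, beside 39.8% of all genes tested in the unstimulated, 36.2% in the LPS and 36.2% in the IFN-β group. Among marker lists, all 4 macrophage genes were highest in library A of the unstimulated and LPS groups and 2 of 4 in that of the IFN-β group, and their sum was 1374 to 1677 CPM in unstimulated, 1629 to 2052 CPM in LPS-activated and 1909 to 2190 CPM in IFN-β-treated DCs. The 6 neutrophil genes summed to 9.05 to 19.5, 12.1 to 22.5 and 8.82 to 15.6 CPM, with library A highest in each group. Their part in the IRG levels was not tested. T cell markers summed to at most 0.123 CPM, B cell markers to 0.354 CPM and NK cell markers to 0.279 CPM, with *Ncr1* at 0 in every unstimulated and IFN-β library. The 3 mast cell and basophil markers summed to 6.26 to 9.95 CPM in unstimulated, 3.18 to 8.08 CPM in LPS-activated and 2.15 to 4.45 CPM in IFN-β-treated DCs, with library A lowest in each group. *Kit*, the only one of them that was tested, fell by 1.25 with IFN-β (log2, SE 0.34, adjusted p = 0.0118). The part of these markers in the IRG levels was not tested. Without unstimulated library C the 7 genes kept their calls, with log2 fold changes of 2.60 to 7.45 for LPS and 2.50 to 6.68 for IFN-β.

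**Figure D4:**
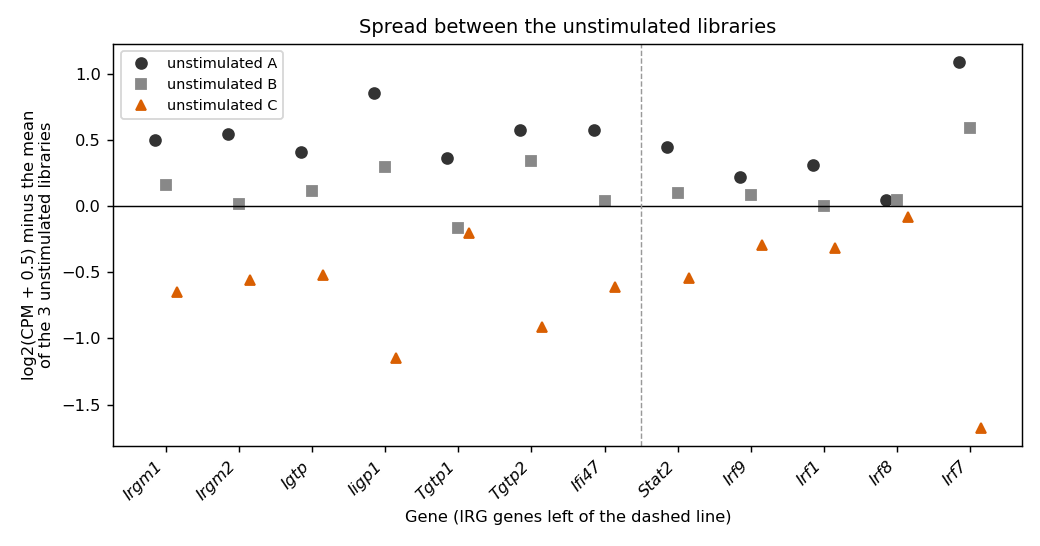
Level of the 7 IRG genes and of 5 interferon-activated transcription factors in each unstimulated library, as log2(CPM + 0.5) minus the mean of the 3 libraries. Library C (triangles) is lowest for all 12 genes, most of all for *Irf7* and *Iigp1*, and library A (circles) is highest for the 7 IRG genes.

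The remaining 11 genes of the IRG family fell into an inducible set and an exceptional pair. With LPS 9 were higher and 1 lower, beside 32.8% and 35.4% of all genes tested. With IFN-β 10 were higher and 1 lower, beside 23.6% and 23.3%. The higher genes include *Gm12187* and *Gm4841*, which passed the filter on low counts only through stimulated libraries, so their calls are no independent result. The median log2 fold changes were 2.75 and 2.64. The largest rises with ample counts were those of *Gm12185* (4.01 ± 0.18 and 3.11 ± 0.18) and *Gm4951* (3.80 ± 0.29 and 3.44 ± 0.29). *Gm12185* shares 223 exon bases with *Tgtp1* on the same strand. *Gm12250*, an IRG-related gene beside *Igtp*, rose by 3.27 ± 0.29 and 2.64 ± 0.28, *F830016B08Rik* by 2.75 ± 0.28 and 2.72 ± 0.28, and *Gm5431* by 2.50 ± 0.19 and 1.91 ± 0.19. The neighbouring genes *9930111J21Rik1* (2.13 ± 0.16 and 1.86 ± 0.16) and *9930111J21Rik2* (2.07 ± 0.14 and 1.82 ± 0.14) rose less. *Gm4841* had 3 counts over the unstimulated libraries against 467 with LPS and 176 with IFN-β, a ratio of 210 (95% exact interval 71.4 to 1022) and of 64.6 (21.7 to 316), which cover counting error only. *Gm12187* had 2 counts against 28 and 26, a ratio of 18.9 (4.76 to 164) and of 14.3 (3.58 to 124).

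*Irgq* and *Irgc1* stood apart from the inducible genes. *Irgq*, a divergent family member on chromosome 7, fell by 0.51 with LPS (SE 0.08, adjusted p = 0.000149) and fell by 0.42 with IFN-β (SE 0.08, adjusted p = 0.00131). *Irgc1*, known as a testis gene, was at 10.2 ± 1.68 CPM in unstimulated, 8.10 ± 1.81 CPM in LPS-activated and 16.4 ± 0.90 CPM in IFN-β-treated DCs. It rose with IFN-β by 0.69 ± 0.16 (adjusted p = 0.005) and changed with LPS by -0.33 ± 0.17 (adjusted p = 0.0951). This LPS difference was called lower with the letters as a block (adjusted p = 0.0101), without TMM factors (-0.92, adjusted p = 0.000184), with upper-quartile factors (adjusted p = 0.0302), with no filter on low counts (adjusted p = 0.0262) and without unstimulated library C (adjusted p = 0.0252), and it was -0.16 without LPS library C (adjusted p = 0.327). The IFN-β level was above the LPS level by 1.02 ± 0.16 (adjusted p = 0.000448), the one rise among the 11, beside 25.8% of genes higher. *Gm12185*, *Gm4841* and *Gm5431* were called lower with IFN-β than with LPS (3 of 11, beside 23.3% of genes). In either direction 4 of 11 were called, beside 49.1% of genes, and 7 of 11 with the letters as a block, beside 58%. The call of *Gm5431* was lost without TMM factors (adjusted p = 0.109), without LPS library A (0.0663), without IFN-β library B (0.0768) and without IFN-β library C (0.0535).

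**Figure D5:**
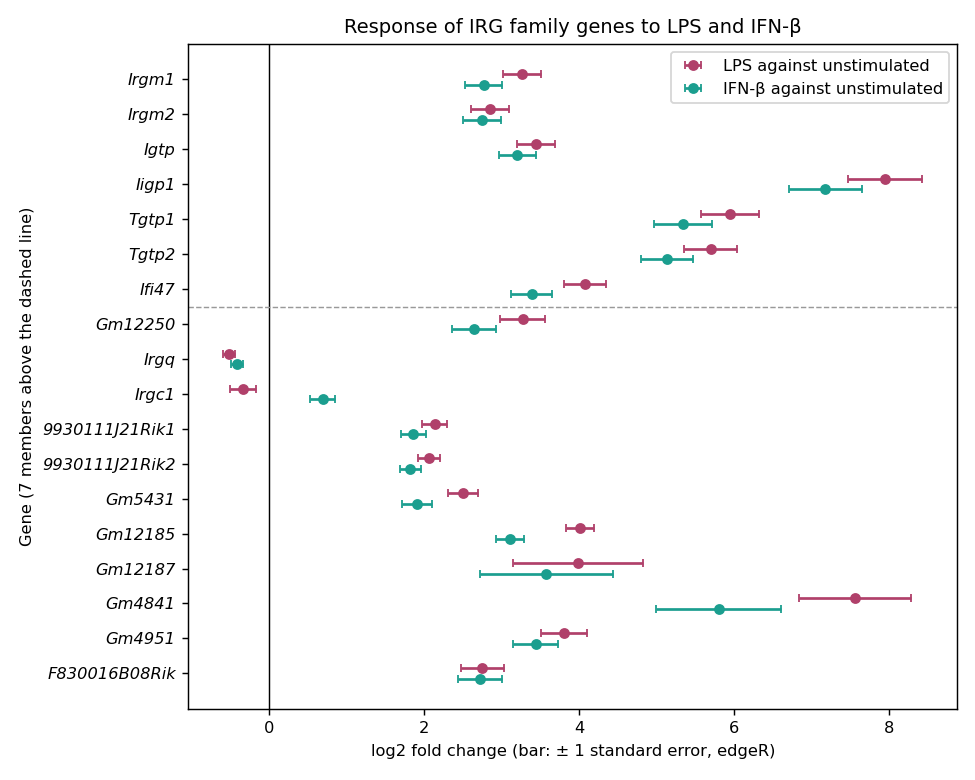
Log2 fold change against unstimulated DCs with LPS (magenta) and IFN-β (green), with bars of ± 1 standard error from edgeR, for the 7 IRG genes above the dashed line and 11 other family genes below it. *Iigp1* lies farthest right among the 7, *Irgq* lies left of 0 with both stimuli, *Irgc1* differs in sign, and the estimates of *Gm12187* and *Gm4841* rest on 2 and 3 unstimulated counts.

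The guanylate-binding proteins (GBPs), a related GTPase family that acts on the same vacuoles, were raised as well. All 11 were higher with LPS (median 4.17) and with IFN-β (median 3.49), beside 32.8% and 23.6% of all genes tested. These include *Gbp10*, which passed the filter on low counts only through stimulated libraries, so its call is no independent result. *Gbp5*, which promotes inflammasome activation, rose by 5.77 ± 0.16 with LPS and by 3.84 ± 0.14 with IFN-β. *Gbp10* had 0 counts in the unstimulated group, 179 in the LPS group and 114 in the IFN-β group, at least 80.5-fold and 41.8-fold higher against a floor of 3 counts over the group. *Gbp11* rose with IFN-β by 3.87 ± 0.42. Between the stimuli 8 GBPs were lower and 1 higher with IFN-β, beside 23.3% and 25.8% of genes. The calls went from 9 to 11 of 11 with the letters as a block, beside 58% of genes called in either direction. Without IFN-β library B they went to 5. The share of all genes called in that fit is not given here, so this drop is no result about the GBPs. *Gbp8* was the exception, higher with IFN-β by 0.93 ± 0.21 (adjusted p = 0.00423).

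Genes of ATG8 conjugation and of ubiquitin adaptors, which place IRGs on vacuoles and mark those vacuoles, moved in both directions. Of 17 tested, 9 were higher and 4 lower with LPS, beside 32.8% and 35.4% of all genes. With IFN-β 8 were higher and 2 lower, beside 23.6% and 23.3%. The medians were 0.20 and 0.21. *Trim21*, a ubiquitin ligase, rose by 3.33 ± 0.15 and 2.06 ± 0.15. The adaptor *Sqstm1* (p62) rose with LPS by 1.33 ± 0.08, and *Tax1bp1* rose with IFN-β by 0.93 ± 0.08. *Atg7*, the activating enzyme of ATG8 conjugation, fell by 1.29 with LPS (SE 0.07) and fell by 0.37 with IFN-β (SE 0.07). *Atg5*, part of the conjugation complex, fell by 0.51 with LPS (SE 0.07, adjusted p = 6.26e-05) and differed from unstimulated with IFN-β by -0.16 ± 0.07 (adjusted p = 0.088). *Gabarapl1*, an ATG8 protein, fell by 0.39 with IFN-β (SE 0.07).

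Upstream of the IRGs, 7 of 8 tested interferon ligands, receptors and kinases were higher and 1 lower with each stimulus. Over all genes tested, 32.8% were higher and 35.4% lower with LPS, and 23.6% higher and 23.3% lower with IFN-β. *Ifnb1* had 1 count over the unstimulated libraries, 347 with LPS and 23 with IFN-β, a ratio of 468 (95% exact interval 83.4 to 18538) and of 25.3 (4.11 to 1043). *Ifnb1* passed the filter on low counts only through stimulated libraries, so its call as higher is no independent result. *Ifng*, whose product is the classical inducer of IRGs, was too low to be tested (at most 0.022 CPM on average in a group). The kinase gene *Jak2* rose by 2.12 ± 0.09 with LPS and by 0.74 ± 0.09 with IFN-β, and *Tyk2* rose by 0.74 ± 0.08 with IFN-β. *Ifngr1*, a subunit of the IFN-γ receptor, fell by 1.48 with LPS (SE 0.11) and fell by 0.66 with IFN-β (SE 0.10). All 5 transcription factors examined were higher with both stimuli, beside the same 32.8% and 23.6%, led by *Irf7* (3.34 ± 0.53 and 3.12 ± 0.52) and *Stat2* (2.48 ± 0.20 and 2.15 ± 0.20). Between the stimuli, *Irf8* and *Irf9* were called lower with IFN-β (2 of 5, beside 23.3% of genes). In either direction, 4 of 5 were called with the letters as a block, beside 58% of genes. Without TMM factors 1 of 5 was called, beside 55.5%.

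Likeness of pattern was measured as the Euclidean distance between log2(CPM + 0.5) values centred on each gene's mean, over 9 libraries and 16253 other genes. It is a description, and much of it is the shared difference between groups. *Ifi203-ps* was nearest to the mean profile of the 7 genes (distance 0.266), followed by *Phf11a* (0.521), *Gbp4* (0.614), *Plekha4* (0.643) and *Gm47242* (0.648). Among single genes, *Irgm1* was nearest to *Phf11* (0.261), *Irgm2* to *Pde7b* (0.438), *Igtp* to *Trim30b* (0.442) and *Ifi47* to *Gm5970* (0.344). *Tgtp1* was nearest to *Gm47242* (0.508), *Tgtp2* to *Isg20*, an antiviral exonuclease gene (0.574), and *Iigp1* to *Rsad2*, which encodes viperin (1.38). Within the family, the GMS genes were the closest to one another, with *Irgm1* and *Igtp* at 0.585, *Irgm1* and *Irgm2* at 0.647 and *Irgm2* and *Igtp* at 0.727. *Irgm2* and *Iigp1* were the farthest apart, at 6.51. The coding sequences of *Irgm2* and *Igtp* matched at 74.5% of aligned bases, the highest after the *Tgtp1* and *Tgtp2* pair. Those of *Irgm2* and *Iigp1* matched at 61.8%, the lowest of the 21 pairs. *Tgtp1* and *Tgtp2*, matched at 99.7%, had profiles 1.52 apart, farther than *Igtp* and *Ifi47* (0.951), matched at 65.0%. Unstimulated levels of *Tgtp1* were close to the pseudocount of 0.5 CPM, which shrinks its rise in these profiles. The edgeR changes of *Tgtp1* and *Tgtp2* were nearer, at 5.94 and 5.70 with LPS and 5.34 and 5.13 with IFN-β. The distance between the pair is therefore no measure of a difference in response. A link between sequence and profile was not tested.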

How the data were processed

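RNA of 9 libraries (3 groups of 3) was depleted of ribosomal RNA and sequenced by the authors, who trimmed the reads, mapped them to mm10 with STAR and counted them on GENCODE genes. The submitters' processing notes name STAR 2.7.8a and Trim Galore 0.6.0. The deposited values are unnormalized and unfiltered read counts for each gene in each library, and the strand setting of the counting is not given in the sources used here. STAR counts uniquely mapped reads, so reads common to near-identical genes can be lost.

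Counts were analysed with edgeR 4.0.16, limma 3.58.1 and DESeq2 1.42.0 in R 4.3.3. TMM factors, a 3-condition negative binomial model on all 9 libraries and quasi-likelihood F-tests followed the study's methods, with Benjamini-Hochberg adjustment. Low counts were removed with filterByExpr (16260 of 55471 genes kept), and the study's own filter is not given in the sources used here. Standard errors are the absolute log2 fold change over the square root of F. Single-library log2 values used a pseudocount of 0.5 CPM. Floors were 3 counts, and intervals cover counting error only, since no molecular identifiers tell PCR copies from molecules. Scripts were tested on simulated data.

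Beside the 7 genes, the text names every other listed IRG gene, the 2 genes of each further list with the largest rise and fall past the threshold in each comparison with unstimulated, the nearest profiles, *Il12b* and *Ifit1*, and genes sharing exon bases. *Gbp8*, *Irf8*, *Irf9*, *Ifng* and the marker genes were named after their values were seen. A further transcription factor gene is not reported here. The members and lists were chosen with earlier results of these data known. After subtraction of group means, libraries with the same letter correlated across genes at 0.134 to 0.546 in all 9 pairs. No source says what a letter marks. The main model and the permutation tests left the letters out, and a fit with the letters as a block is an alternative. Alternatives are given in the closing section. Positions come from GENCODE M21 and promoters from RefSeq, both on GRCm38.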

Additional observations from a re-analysis of the deposited data

How the results depend on the processing

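The calls of all 7 IRG genes as higher with LPS and with IFN-β held in each of the 17 alternatives (6 of 6 with *Tgtp1* and *Tgtp2* summed), including scaling by library size only and the replicate letters as a block. The number of IRG genes called between IFN-β and LPS was 1 and became 2 with DESeq2, 0 by library size only, 5 with no filter on low counts, 4 with the compared groups alone, 5 with the replicate block, 0 at a minimum log2 difference of 1, 0 with an adjusted p under 0.01, and 0 to 4 when single libraries were left out. The cause of these changes was not tested. DESeq2 called 48.8% of all genes tested in that comparison, in place of 49.1%. Shares of all genes are not given for the fits with no filter, the compared groups alone, the stricter thresholds or single libraries left out. By library size only, *Irgm2* and *Igtp* changed sign in that comparison, to 0.18 and 0.04, as did *Irgm2* without LPS library A, to 0.04. For IFN-β against LPS, the replicate block called 58% of all genes tested in place of 49.1%. It called 7 other IRG genes in place of 4, 4 transcription factors in place of 2 and 11 GBPs in place of 9. It also called 10 ATG8 and adaptor genes in place of 8 and 8 ligands, receptors and kinases in place of 7. For IFN-β against unstimulated it called 12 ATG8 and adaptor genes in place of 10, beside 56.3% of all genes in place of 46.9%. *Irgc1* with LPS was called with the block and in 4 other settings. For IFN-β against LPS, library size only gave 4 calls in place of 7 among interferon ligands, receptors and kinases. Among transcription factors it gave 1 in place of 2, and over all genes tested it called 55.5% in place of 49.1%. Leaving out single libraries gave 5 to 10 GBPs in place of 9, again without the shares of all genes called. The fall of the GMS to GKS ratio kept its direction, at -1.70 (LPS) and -1.33 (IFN-β) without *Tgtp1* and *Tgtp2*, and at -2.82 and -2.44 as a mean of the members' log2 counts, which weights the genes equally. With 3 libraries a group, an exact test cannot go below 0.1.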
